A study of Glycine max with 18 samples.

Results

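Seed of the soybean (Glycine max) line TW-1 was compared at the emergence of the primary root (TW-1-3, stage 3) with seed of the same line when its metabolism had just been reactivated (TW-1-2, stage 2). The comparison uses 6 of the 18 libraries of the series, 3 replicates at each stage, assigned by their labels. TW-1 is a low phytic acid (LPA) mutant that was raised from Taiwan 75 by gamma irradiation. It carries a 2-bp deletion in GmMIPS1, a gene of inositol synthesis, and its seed emerges poorly in the field. Both lines of the series carry this deletion, because the second line, TW-1-M, is a natural mutant found within TW-1 whose seed emerges better. The tissue was the whole seed, so transcripts of cotyledon, axis and young root are mixed, and fewer cells of a type cannot be told apart from less RNA per cell. Stage 2 was labelled as 12 h after imbibition and stage 3 as a primary root of 1 mm, and stage 1 (TW-1-1) was the imbibed seed. The times given in the labels and in the methods of the study differ, and which of them holds was not settled. No source used here says that the replicates came from separate plants or seed lots, so p-values measure the spread between these libraries, which may be technical.

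A mature soybean seed stores transcripts of its last phase on the mother plant. They encode late embryogenesis abundant (LEA) proteins, which protect drying cells, small heat shock proteins, which hold damaged proteins in solution, storage proteins and the oleosins that coat oil bodies. As a seed germinates these transcripts are normally lost. Transcripts for ribosomes, for water channels, for enzymes that loosen the cell wall and for the cytoskeleton accumulate as the root begins to elongate.

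Expression was measured by RNA sequencing as FPKM, the number of fragments scaled for transcript length and for the total mapped in the library. Of the 45955 genes in the table, 27150 reached FPKM 1 in at least 3 of the 18 libraries and were tested. Log2 fold changes are TW-1-3 minus TW-1-2 on the scale of log2(FPKM + 1), given ± SE, and understate the change of genes with low FPKM. A gene was called a DEG at an unadjusted p-value below 0.05 (limma, two-sided) with an absolute log2 fold change above 1. The study reports mapped reads for each library, but the deposited values are not read counts. The fragments behind a value were not derived, and no counting interval was computed. Over the 9 TW-1 libraries the summed FPKM ranged from 793482 to 1296622, and the 10 most abundant genes took between 9.94% and 17.0% of it. The tissue label was checked by seed markers. Storage protein and oil body transcripts were present in all 6 libraries, with a summed FPKM from 4867 to 11108 in TW-1-2 and from 1436 to 5799 in TW-1-3. The summed FPKM of photosynthesis genes, which mark greening tissue, was 126 to 426 in TW-1-2 and 214 to 2296 in TW-1-3, and that of cell cycle genes 1739 to 3597 and 1118 to 2038. The part of such shifts in tissue makeup in the results below was not tested.

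TW-1-3 replicate 1 stood apart from the other libraries of its group. Its log2(FPKM + 1) values over the 27150 genes correlated on average at 0.929 with the 3 libraries of TW-1-1, at 0.912 with those of TW-1-2 and at 0.779 with its own group. It had both the highest summed FPKM (1296622) and the fewest genes above 0 (30656). By these correlations the library labelled TW-1-3 replicate 1 goes against its label, and whether it holds seed that had reached stage 3 was not settled, which bears on every value from all 6 libraries. TW-1-2 replicate 1 was displaced in the same sense, with a mean correlation of 0.960 with TW-1-1 and of 0.915 with its own group. For the step in TW-1, values with no setting named are from all 6 libraries. Most lists, and a part of the single genes, are therefore also given without TW-1-3 replicate 1. That library was set aside for its values, so p-values without it rest on a choice made from these data and on 2 libraries against 3.

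With all 6 libraries, 2105 of the 27150 genes were called between TW-1-2 and TW-1-3 (7.75%). The level was higher in TW-1-3 for 922 of them (3.4% of the genes tested) and lower for 1183 (4.36%). None passed at a Benjamini-Hochberg adjusted p-value below 0.05 in limma, where the smallest adjusted p was 0.0507, whereas 3913 genes had an unadjusted p below 0.05. When the replicate number entered the fit as a block, the number rose to 3368, of which 1785 were higher and 1583 lower, and 1 passed at the adjusted p. Without TW-1-3 replicate 1, 7652 genes were called (28.2%), 4461 higher (16.4%) and 3191 lower (11.8%), and 7582 passed at the adjusted p (27.9%). The call was kept with the same sign by 1950 of the 2105 genes. Without TW-1-2 replicate 1 the number was 1253, and without TW-1-3 replicate 2 it was 1295. The stages did not overlap in 5907 genes (21.8%), 2858 of them higher in TW-1-3 (10.5%) and 3049 lower (11.2%). The median log2 fold change of all genes tested was 0.10 both with and without TW-1-3 replicate 1.

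Transcripts of the maturing seed fell up to root emergence. Of 34 LEA and seed maturation genes tested, 28 were called lower and 0 higher, with a median log2 fold change of -2.50 against 0.10 for all genes. The same numbers, 28 and 0, were found without TW-1-3 replicate 1, with a median of -2.85. Of all genes tested, 4.36% were called lower and 3.4% higher with all 6 libraries, and 11.8% and 16.4% without that one. Leaving out each other library gave between 21 and 25 called genes. The members of this list were found by descriptions that the study gives for the genes by which, in these same libraries, it told the lines apart, so the list is not independent evidence of a change, and this holds for every list found by description. A family found by gene symbol alone (PM and LEA symbols) does not depend on that annotation, but it shares members with the list, such as PM9, PM16, PM30 and LEA5. It is therefore not separate evidence. In this family 15 of the 20 tested members were called lower and 0 higher, with a median of -2.26.

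PM1, a seed maturation polypeptide, had FPKM 12741, 7878 and 9341 in replicates 1 to 3 of TW-1-2 and 4132, 1987 and 1197 in those of TW-1-3, a log2 fold change of -2.19 ± 0.58 (limma adjusted p = 0.267). PM16, a seed maturation protein, went from 9695, 6461 and 4333 to 2477, 1025 and 730 (-2.40 ± 0.60). In both genes every TW-1-3 library lay below every TW-1-2 library, and replicate 1 was the highest of TW-1-3. SLE2, an Em protein of the LEA group, had 7376, 3314 and 3638 in TW-1-2 and 1040, 592 and 150 in TW-1-3 (-3.30 ± 0.78). TENA_E, described as the seed maturation protein PM36, had 5416, 3485 and 1987 against 1221, 144 and 55.2 (-3.96 ± 1.12). Its group means differed 7.67-fold, and without TW-1-3 replicate 1 its log2 fold change was -5.21 ± 0.60.

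The largest falls of the list were in less abundant transcripts. The SBP65-like gene LOC100780139, whose product is named as a biotin-containing protein of the seed, had 2576, 1280 and 622 in TW-1-2 and 91.9, 10.8 and 13.9 in TW-1-3 (-5.65 ± 0.90), 38.4-fold by group means. The LEA-like gene LOC100787615 had 803, 383 and 375 against 62.1, 28.8 and 7.31 (-4.29 ± 0.76). These groups did not overlap, and both calls held without each library in turn. The most abundant members were less certain. PM9 had 18995, 13732 and 13061 in TW-1-2 and 8939, 3064 and 1702 in TW-1-3 (-2.06 ± 0.70), and lost its call without any 1 of the libraries other than TW-1-3 replicate 1, with log2 fold changes from -2.17 to -1.52, while it was -2.72 ± 0.55 without that replicate. PM30 behaved alike (-2.08 ± 0.81), and its TW-1-3 replicate 1 value of 6994 lay within the range of TW-1-2, 6968 to 12879.

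LEA5, a desiccation protective protein, was an exception. It had 10441, 9388 and 8850 in TW-1-2 and 26040, 9778 and 4517 in TW-1-3, so the stages overlapped and the difference of 0.14 ± 0.72 was not called (limma adjusted p = 0.932). Without TW-1-3 replicate 1, which held the highest value, it was -0.52 ± 0.58.

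Transcripts of reserves were also lower at root emergence. Of 24 tested genes for storage proteins and oil bodies 11 were called lower and 0 higher (median -1.55), and without TW-1-3 replicate 1 the numbers were 17 and 0 (median -1.98). The shares of all genes were 4.36% lower and 3.4% higher, and 11.8% and 16.4% without that replicate. With the replicate block 15 were lower and 3 higher. Among genes with storage protein symbols (GY, CG-1, KTI) 3 of 9 were called lower and 0 higher, and 4 and 1 with the block. Its KTI genes were not called with all 6 libraries, at 1.32 ± 0.88 in KTI-1, 0.32 ± 0.40 in KTI3 and -1.16 ± 1.09 in KTI1. CG-1, a beta-conglycinin subunit, had FPKM 227, 113 and 320 in TW-1-2 and 79.1, 41.5 and 32.5 in TW-1-3 (-2.06 ± 0.51). GY4, a glycinin, had 180, 131 and 227 against 95.9, 24.4 and 33.1 (-2.0 ± 0.55). Neither gene overlapped between the stages. The glycinin GY2 had 836, 477 and 496 against 484, 16.6 and 109, where TW-1-3 replicate 1 lay within the range of TW-1-2. Its difference of -2.58 ± 1.13 was not called, but was with the replicate block, where the SE was 0.75, and without that library (-3.73 ± 0.76). The oleosin LOC100789191 had 1676, 781 and 1199 against 549, 193 and 134 (-2.26 ± 0.61).

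Genes for the raffinose family sugars, which accumulate with desiccation tolerance, gave 7 of 12 tested genes called lower and 0 higher (median -2.02). It was 8 of 12 without TW-1-3 replicate 1 (median -2.55), and without each other library it was 4. Among all genes 4.36% were called lower with all 6 libraries and 11.8% without TW-1-3 replicate 1. The list mixes enzymes that make these sugars with alpha-galactosidases, which break them down. The alpha-galactosidase-like gene LOC100804260 was among those called lower (-2.23 ± 0.88). A galactinol synthase 2 gene (gene55115 in the numbering of the study), which makes the galactosyl donor of the pathway, had 318, 303 and 385 in TW-1-2 and 54.0, 54.9 and 13.8 in TW-1-3 (-3.23 ± 0.56). A stachyose synthase gene (gene55008) had 177, 90.2 and 87.7 against 55.4, 5.78 and 4.35 (-3.15 ± 0.91). All TW-1-3 libraries were below all TW-1-2 libraries in both genes. Galactinol synthase 1 (LOC100809287) differed, since TW-1-3 replicate 1 kept 658 beside 29.5 and 53.5 in replicates 2 and 3, within the TW-1-2 range of 558 to 913. Its call (-2.72 ± 1.10) was lost without each library other than that replicate, with log2 fold changes from -2.86 to -1.84, and without that replicate it was -4.06 ± 0.38.

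Heat shock proteins and other chaperones formed the list with the largest number of genes called lower, though not the largest share. With all 6 libraries 34 of 73 tested genes were called lower and 0 higher (median -1.25), and without TW-1-3 replicate 1 it was 49 lower and 3 higher (median -1.53). Beside these, 4.36% of all genes were lower and 3.4% higher with all 6 libraries, and 11.8% and 16.4% without that replicate. Among genes with heat shock symbols (HSP, HSF) 10 of 22 were called lower and 0 higher. The class I small heat shock gene HSP17.3-B had 316, 205 and 89.8 in TW-1-2 and 37.8, 8.70 and 5.73 in TW-1-3 (-3.73 ± 0.76). LOC100500307, another class I gene, had 572, 241 and 187 against 52.2, 28.4 and 11.6 (-3.46 ± 0.65). A class III gene (gene17911) had 78.8, 73.5 and 52.0 against 3.97, 3.55 and 1.30, a log2 fold change of -4.19 ± 0.38 (limma adjusted p = 0.150) and 23.2-fold by group means. In all 3 genes the stages did not overlap. The class I genes are close copies of one another, and how the authors treated reads that map to several genes is not given in the sources used here, so the split between copies is uncertain, as it is for tubulins, ribosomal proteins and glycinins. The most abundant member, LOC100779969 of class I, had 2509, 1102 and 757 against 1238, 188 and 235 and was not called (-1.75 ± 0.83) except with the replicate block, where the SE was 0.39, or without TW-1-3 replicate 1 (-2.60 ± 0.55).

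**Figure D1:**
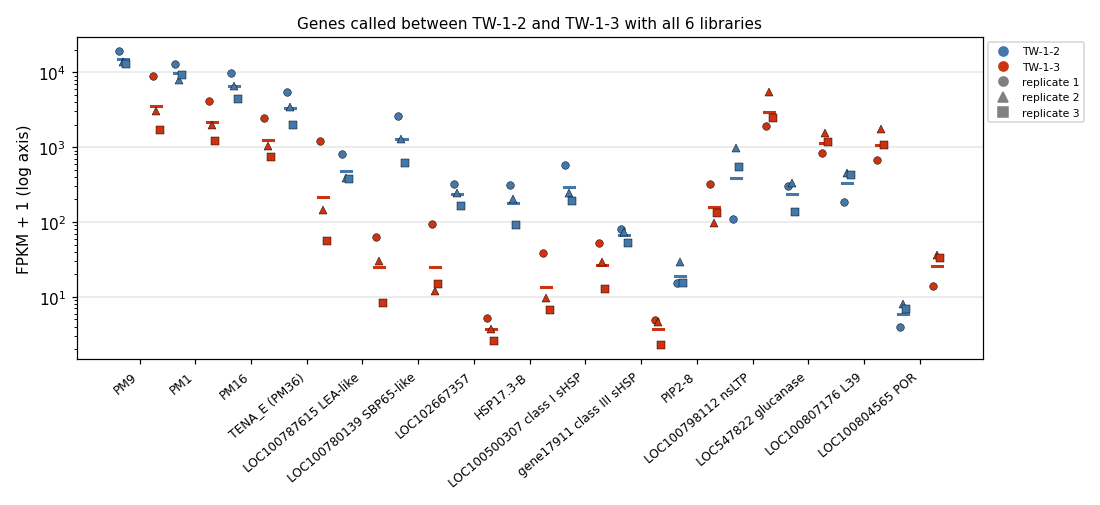
FPKM + 1 on a log axis of 15 genes called between TW-1-2 (blue) and TW-1-3 (red) with all 6 libraries, where each point is a library, the marker shape gives the replicate and a bar the mean of log2(FPKM + 1). The stages do not overlap in any of the 15 genes, for example 7878 to 12741 against 1197 to 4132 in PM1, and replicate 1 is the highest TW-1-3 library of PM9, PM1, PM16 and TENA_E.

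Part of the transcription factors fell too. Of 109 tested transcription factor genes 18 were called lower and 2 higher (median -0.14), and without TW-1-3 replicate 1 it was 36 and 18 (median -0.47). The number called was 13 without TW-1-2 replicate 1 and also without TW-1-3 replicate 2. Shares of all genes were 4.36% lower and 3.4% higher with all 6 libraries, and 11.8% and 16.4% without TW-1-3 replicate 1. LOC100797850, a dehydration-responsive element-binding protein 2D, which belongs to a class of activators of drought and heat genes, had 331, 139 and 104 in TW-1-2 and 35.4, 8.43 and 3.01 in TW-1-3 (-3.93 ± 0.85). NAC2 had 1037, 330 and 411 against 262, 93.5 and 105 (-1.92 ± 0.60), and lost its call without TW-1-3 replicate 2 (-1.64) or replicate 3 (-1.73). Of 24 tested genes with a NAC symbol 5 were called lower and 0 higher, 9 and 0 with the replicate block or with quantile normalization, and 13 and 0 without TW-1-3 replicate 1. The defensin-like gene LOC100306228, one of the most abundant transcripts of TW-1-2, had 10063, 6012 and 5503 against 5081, 403 and 273 (-3.07 ± 1.11). Its stages did not overlap, but the call was lost without each library other than TW-1-3 replicate 1, at log2 fold changes from -3.24 to -2.27.

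With all 6 libraries, the largest fall of a described gene was that of LOC102667357, which is described as neurofilament medium polypeptide-like. It had 318, 244 and 164 in TW-1-2 and 4.15, 2.77 and 1.58 in TW-1-3, 85.3-fold by group means and -5.99 ± 0.38 on the log2 scale (limma adjusted p = 0.0507). In TW-1-1 it had 488, 450 and 548.

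Fewer genes rose in all 3 TW-1-3 libraries. The largest rise with a description was in PIP2-8, a plasma membrane water channel, which had 14.2, 28.6 and 14.1 in TW-1-2 and 318, 95.9 and 130 in TW-1-3 (3.07 ± 0.53, limma adjusted p = 0.194), 9.57-fold by group means. Replicate 1 was here the highest library of TW-1-3, and without it the change was 2.57 ± 0.37. In TW-1-1 PIP2-8 had 39.6, 71.6 and 46.7, above every TW-1-2 library, so the rise is measured from a lower level than that of the imbibed seed. A non-specific lipid-transfer protein-like gene (LOC100798112) had 108, 987 and 547 against 1920, 5420 and 2438 (2.92 ± 0.88). A beta-1,3-endoglucanase (LOC547822), of an enzyme class that cleaves callose, had 302, 330 and 134 against 828, 1539 and 1161 (2.26 ± 0.48). None of the 3 overlapped between the stages.

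LOC100787707, a GRF1-interacting factor 1-like gene of a family of co-activators that promote cell division in leaves of Arabidopsis, had 7.30, 32.5 and 25.8 in TW-1-2 and 65, 81.9 and 79.9 in TW-1-3 (1.96 ± 0.54). LOC100792708, the H protein of mitochondrial glycine cleavage, had 37.4, 79.5 and 42.3 against 129, 337 and 155 (1.89 ± 0.48). Protochlorophyllide reductase (LOC100804565), which carries out the light-dependent step of chlorophyll synthesis, had 2.92, 6.95 and 5.83 against 13, 34.9 and 31.9 (2.09 ± 0.47), although 1 library of TW-1-1 held 44.9. APX1, a cytosolic ascorbate peroxidase that removes hydrogen peroxide, had 112, 109 and 101 against 267, 346 and 261 (1.42 ± 0.28). In each of these genes all TW-1-3 libraries were above all TW-1-2 libraries.

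Ribosomal proteins and translation factors were the group with the most rises in all libraries. Of 53 tested genes 13 were called higher and 2 lower (median 0.75), with the replicate block 26 and 2, and without TW-1-3 replicate 1 28 and 8 (median 1.24). All genes together gave 3.4% higher and 4.36% lower with all 6 libraries, and 16.4% and 11.8% without that replicate. The number called depended on the libraries, and was 3 without TW-1-2 replicate 1 and also without TW-1-3 replicate 2, 6 without TW-1-3 replicate 3 or with quantile normalization and 9 without TW-1-2 replicate 3. The ribosomal protein gene L39 (LOC100807176) had 184, 455 and 424 in TW-1-2 and 665, 1773 and 1066 in TW-1-3 (1.71 ± 0.54). S29 (LOC100305476) had 369, 721 and 686 against 1294, 2097 and 1089 (1.34 ± 0.45). The stages did not overlap in either gene, and both calls were lost without TW-1-2 replicate 1, at 1.29 and 1.03, and without TW-1-3 replicate 2, at 1.35 and 1.06. A gene described as 60S ribosomal protein L10 (gene49921) went the other way, with 1408, 827 and 758 against 747, 41.2 and 89.0 (-2.76 ± 1.03), but lost its call without each library other than TW-1-3 replicate 1, at log2 fold changes from -2.93 to -1.89.

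The groups tied to growth are set here beside the values over all genes. With the replicate block 1785 of the 27150 genes tested were called higher and 1583 lower. The shares over all genes were 3.4% higher and 4.36% lower with all 6 libraries and 16.4% higher and 11.8% lower without TW-1-3 replicate 1. With all 6 libraries 2 of 50 genes for cell wall loosening were called higher and 3 lower (6 and 4 with the replicate block), whereas without that library 22 were higher and 6 lower and the median moved from 0.60 to 1.22. The shares called higher were 4.0% and 44.0%, of which the first is near that of all genes. For the list of tubulins and actins, which also holds profilins, kinesins and microtubule-associated proteins, the counts over 55 genes were 1 higher and 2 lower, 11 and 2 with the block, and 29 and 2 without the library (median 0.61 and 1.15 with and without it), so the share called higher was 1.82% with it and 52.7% without it. Of 18 aquaporin genes 1 was higher and 3 lower, 4 and 3 with the block, and 12 and 3 without the library (median 0.92 and 2.28). Photosynthesis genes gave 1 of 15 higher, 9 with the block and 12 without the library, with 0 lower in each (median 1.23 and 2.62), and the class III peroxidases 0 of 9, 2 and 6 (median 0.80 and 2.50). Cell cycle and DNA replication genes were near the shares of all genes, with 1 of 51 higher and 4 lower, 2 and 6 with the block and 12 and 7 without the library (23.5% and 13.7%).

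**Figure D2:**
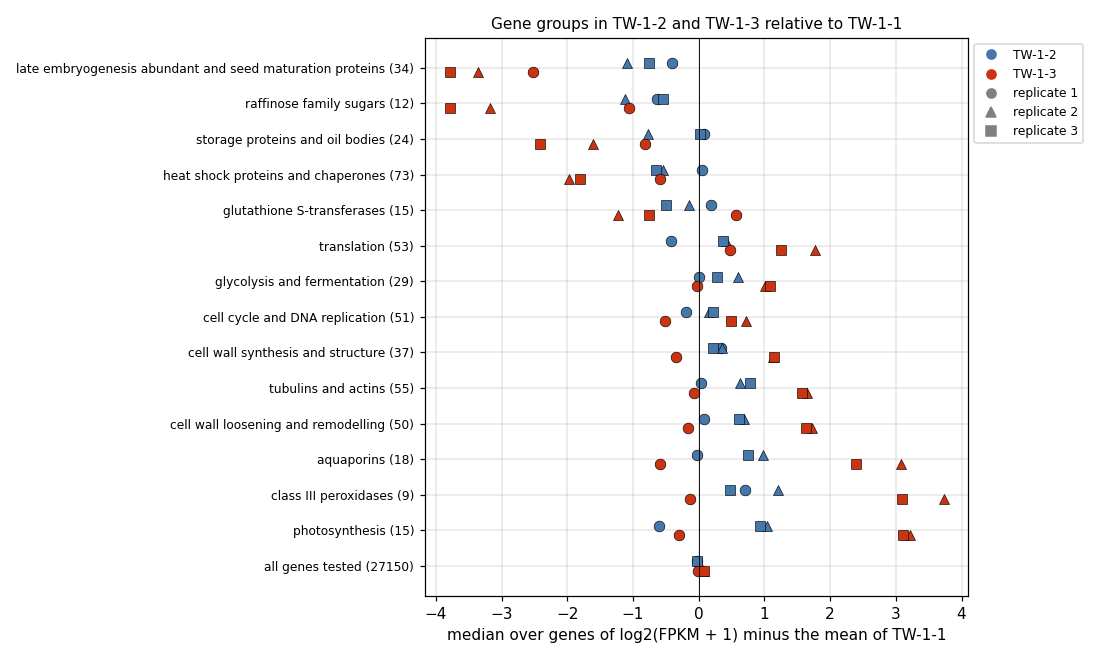
Median over the genes of each group (number tested in brackets) of log2(FPKM + 1) minus the mean of TW-1-1, for each library of TW-1-2 (blue) and TW-1-3 (red), where the marker shape gives the replicate. For LEA and seed maturation genes TW-1-3 lies at -2.52, -3.36 and -3.79 in replicates 1 to 3, all below TW-1-2, while for photosynthesis genes TW-1-3 replicate 1 lies at -0.29 beside 3.22 and 3.11 in replicates 2 and 3.

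TW-1-3 replicate 1 differed from the other libraries of its stage in some groups more than in others. Measured against the mean of TW-1-1, its LEA and seed maturation genes had a median log2 difference of -2.52, beyond all TW-1-2 libraries (-0.40, -1.09 and -0.76) and toward replicates 2 and 3 (-3.36 and -3.79). Its storage protein and oil body genes were at -0.81, where the 3 TW-1-2 libraries lay at 0.09, -0.77 and 0.02 and the other TW-1-3 libraries at -1.60 and -2.41. The translation genes stood at 0.47 in it, above the 0.41 of the highest TW-1-2 library, and at 1.77 and 1.25 in replicates 2 and 3. In contrast, its aquaporins were at -0.58 where replicates 2 and 3 had 3.08 and 2.40, its wall loosening genes at -0.16 beside 1.73 and 1.63, and its tubulins and actins at -0.07 beside 1.64 and 1.57. These medians were below those of the 3 TW-1-2 libraries.

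By gene, 52 of 55 tubulin and actin genes (94.5%), 46 of 50 wall loosening genes (92.0%) and 15 of 15 photosynthesis genes were closer in TW-1-3 replicate 1 to the mean of TW-1-1 than to the mean of TW-1-3 replicates 2 and 3. The same held for 51 of 73 heat shock and chaperone genes (69.9%) and for 13 of 34 LEA and seed maturation genes (38.2%), beside 18758 of all 27150 genes (69.1%).

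TW-1-3 replicate 1 was also set against the range of the 3 TW-1-2 libraries. It took no part in the calls made without it, but was set aside because it was unlike the rest of its group. Where it lies is therefore not an independent check of those calls. Of the 4461 genes called higher without TW-1-3 replicate 1, it lay above the TW-1-2 range in 956 (21.4%), within it in 1923 (43.1%) and below it in 1582 (35.5%). Of the 3191 genes called lower it lay below the range in 1310 (41.1%), within it in 1162 (36.4%) and above it in 719 (22.5%). Over all genes the shares above, within and below were 31.8%, 34.7% and 33.5%. Its median difference from the TW-1-2 mean was -0.34 in the genes called higher, where replicates 2 and 3 had 1.46, and -0.15 in those called lower, where they had -1.43.

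**Figure D3:**
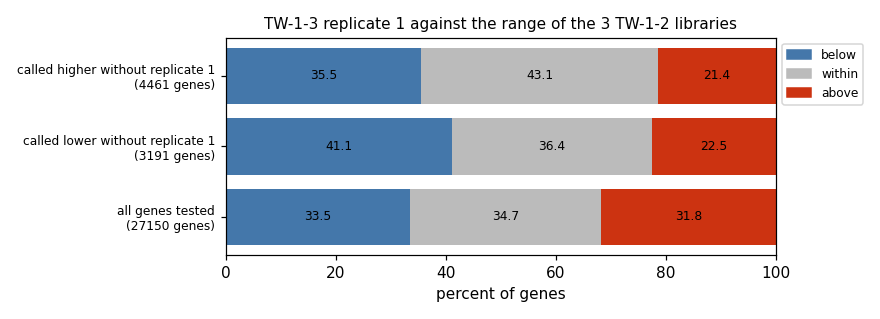
Percent of genes in which TW-1-3 replicate 1 lay below (blue), within (grey) or above (red) the range of the 3 TW-1-2 libraries, for genes called higher or lower between the stages without that library and for all genes tested. Replicate 1 lies above the range in 21.4% of the genes called higher and in 31.8% of all genes, and below it in 41.1% of the genes called lower and in 33.5% of all genes.

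Single genes of the growth groups show how wide the gap was. TUBB3, a beta-tubulin, had FPKM 15.9, 261 and 224 in replicates 1 to 3 of TW-1-2 and 7.22, 1206 and 915 in those of TW-1-3. Replicate 1 was the low library at both stages, and the log2 fold change was 1.06 ± 2.09 with it and 3.40 ± 1.17 without TW-1-3 replicate 1 (limma adjusted p = 0.0700). XTH1, an endo-xyloglucan transferase that remodels wall xyloglucan, had 7.40, 159 and 101 against 20.9, 666 and 260 and was called only with the replicate block (1.60 ± 0.27) or without TW-1-3 replicate 1 (3.02 ± 1.25). The latter call was lost without TW-1-2 replicate 3 (3.51) and without either remaining TW-1-3 library (3.69 and 2.34). EXP1, an expansin and one of the most abundant members of the wall loosening list, had 38.7, 164 and 196 against 128, 553 and 215 and was not called in either fit (1.19 ± 0.79, and 1.67 ± 0.78 without TW-1-3 replicate 1). The largest called rise of that list with all 6 libraries was in the polygalacturonase-like gene LOC100779518, with 0.17, 0.38 and 0.24 against 1.92, 4.74 and 4.85 (1.87 ± 0.33). The expansin DD2/63, of a family that loosens walls without cutting them, had 4.37, 18.0 and 23.0 against 0.86, 159 and 50.2 (2.75 ± 0.76 without the library). Without a further TW-1-3 library the calls of TUBB3 (3.20 and 3.60) and of DD2/63 (1.92 without replicate 2) were lost.

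Water channels also varied widely between replicates. PIP1-8 was listed at 0, 0.69 and 0.71 in TW-1-2 and at 0, 42.6 and 19.7 in TW-1-3 (2.76 ± 1.33, called with the replicate block at an SE of 0.88, and 4.40 ± 0.41 without TW-1-3 replicate 1). The tonoplast aquaporin LOC100527338 had 2.56, 74.1 and 45.9 against 0.18, 436 and 329, so both replicate 1 libraries were far below the rest of their stage (4.03 ± 1.24 without TW-1-3 replicate 1, limma adjusted p = 0.0535). That call was lost without either remaining TW-1-3 library (3.83 and 4.23). PIP1-10, one of the most abundant members, had 234, 175 and 229 against 75.3, 405 and 204 and was not called in either fit (-0.20 ± 0.61, and 0.44 ± 0.38 without TW-1-3 replicate 1). The tonoplast (TIP) genes were divided, since TIP4-1 had 4.67, 6.01 and 5.56 against 0, 38.1 and 39.5, whereas others fell. LOC100777419 (TIP1-3-like) fell in every library, from 14.7, 15.0 and 21.4 to 2.01, 2.54 and 1.97 (-2.49 ± 0.26), and LOC100817450 (TIP-type alpha) from 728, 326 and 519 to 259, 104 and 54.6 (-2.12 ± 0.62).

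Of 37 genes for cell wall synthesis and structure 0 were called higher and 1 lower, 4 and 1 with the replicate block, and 13 and 2 without TW-1-3 replicate 1. Over all genes the shares were 3.4% and 4.36% with all 6 libraries, and 16.4% and 11.8% without that one. A gene for a proline-rich protein (gene47759) had 4.38, 47.5 and 34.6 in TW-1-2 and 1.59, 434 and 421 in TW-1-3 (4.35 ± 0.91 without TW-1-3 replicate 1, limma adjusted p = 0.0247). LOC100795218, a stem glycoprotein-like gene of the vegetative storage protein family, had 2.04, 5.84 and 5.74 against 0.10, 312 and 178 (5.51 ± 0.45), the largest rise among described genes without that library. The glycine-rich wall protein gene LOC102668271 was split the opposite way, with 107, 66.2 and 71.7 against 1002, 205 and 107. Chlorophyll a-b binding proteins bind pigment in the antenna. LOC100805310 (type 3) had 31.8, 198 and 222 against 49.3, 1531 and 1029, with 1.92 ± 1.42 from all libraries, called with the block at an SE of 0.48, and 3.47 ± 0.85 without TW-1-3 replicate 1. LOC100783223 (CP24) had 0.72, 9.69 and 7.25 against 0.46, 90.7 and 65.3 (1.96 ± 1.64, called with the block at an SE of 0.70, and 3.87 ± 0.77 without it).

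**Figure D4:**
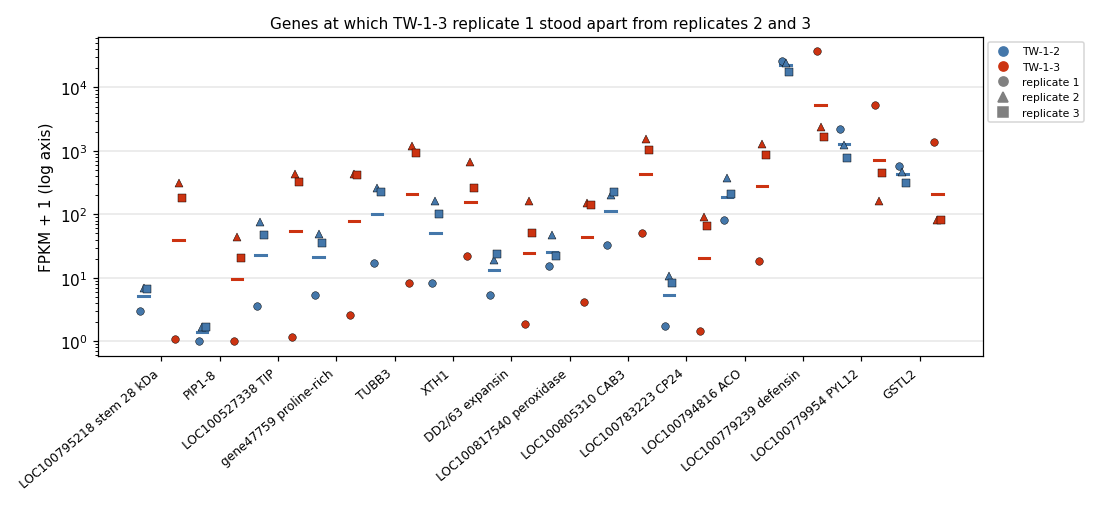
FPKM + 1 on a log axis of 14 genes in TW-1-2 (blue) and TW-1-3 (red), where each point is a library, the marker shape gives the replicate and a bar the mean of log2(FPKM + 1). In TUBB3 TW-1-3 replicate 1 has FPKM 7.22 beside 1206 and 915, and in the defensin-like gene LOC100779239 it has 37176 beside 2398 and 1634.

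Some abundant transcripts stayed high in TW-1-3 replicate 1 and fell in replicates 2 and 3. The defensin-like gene LOC100779239, the most abundant of them, had 26473, 23972 and 17275 in TW-1-2 and 37176, 2398 and 1634 in TW-1-3, which gave -2.08 ± 1.20 with all libraries and -3.49 ± 0.55 without that one (limma adjusted p = 0.0159). The abscisic acid receptor gene LOC100779954 (PYL12-like) had 2219, 1261 and 779 against 5297, 161 and 454 (-2.26 ± 0.62 without it, a call lost at -1.51 without TW-1-3 replicate 2 as well). GSTL2, a glutathione S-transferase, had 583, 465 and 312 against 1387, 79.7 and 81.4 (-2.43 ± 0.34 without it), and CAT4, a catalase, 216, 157 and 139 against 369, 47.6 and 58.8 (-1.65 ± 0.29 without it). In all 4 genes TW-1-3 replicate 1 was above every TW-1-2 library and replicates 2 and 3 were below every one.

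Of the hormone lists, ethylene had the most members. Of 35 genes 8 were called lower and 2 higher, and without TW-1-3 replicate 1 it was 13 and 11. Beside these, 4.36% of all genes were lower and 3.4% higher with all 6 libraries, and 11.8% and 16.4% without that replicate. LOC100796247, an ethylene-responsive transcription factor of the ERF110 type, had 392, 142 and 172 in TW-1-2 and 67.3, 8.35 and 17.4 in TW-1-3 (-3.23 ± 0.78). LOC100800288, a putative EIN3-like 4 gene of a family that transmits the ethylene signal, had 191, 87.9 and 82.1 against 26.4, 13.1 and 9.14 (-2.83 ± 0.50). ACC oxidase (LOC100794816), which makes ethylene, was split by replicate, with 80.7, 369 and 212 against 17.6, 1300 and 871 (0.57 ± 1.62 with all libraries, 2.52 ± 0.64 without TW-1-3 replicate 1, a call lost at 2.23 without replicate 2 as well).

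Among gibberellin genes, GA2OX8, a gibberellin 2-beta-dioxygenase that inactivates the hormone, had 119, 52.4 and 39.5 against 43.2, 6.50 and 7.99 (-2.15 ± 0.77), with replicate 1 of TW-1-3 within the range of TW-1-2. The call was lost without TW-1-2 replicate 1 (-1.69) or replicate 2 (-2.27) and without TW-1-3 replicate 2 (-1.68) or replicate 3 (-1.81). Of 17 tested genes with a GASA symbol, a family named for its response to gibberellin, 4 were called higher and 1 lower, 10 and 1 with the replicate block, and 6 and 1 without TW-1-3 replicate 1. The number called was 3 without TW-1-2 replicate 1, TW-1-2 replicate 3 or TW-1-3 replicate 3. Shares of all genes were 3.4% higher and 4.36% lower with all 6 libraries, and 16.4% and 11.8% without TW-1-3 replicate 1. GASA21 had 10.7, 14.3 and 11.3 against 34.8, 53.8 and 42.1 (1.75 ± 0.28), with no overlap. GASA32, the most abundant, had 147, 3565 and 3525 against 257, 15156 and 10443, so that the values of replicate 1 were low at both stages. Its difference of 1.48 ± 1.91 was called only with the replicate block, at an SE of 0.39, and that of 3.35 ± 1.42 without TW-1-3 replicate 1 was not called (limma adjusted p = 0.113).

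Of the auxin genes 2 of 27 were called higher and 1 lower (4 and 1 with the block, 9 and 2 without TW-1-3 replicate 1). Over all genes the shares were 3.4% higher and 4.36% lower with all 6 libraries, and 16.4% and 11.8% without that one. With so few auxin genes called, the counts are not read as a result about the group. LOC100797120, a GH3.6 enzyme that conjugates auxin to amino acids, fell from 12.0, 17.1 and 8.03 to 2.81, 2.81 and 1.07 (-2.05 ± 0.39). Of 6 abscisic acid genes 1 was called higher and 0 lower. That gene, the receptor LOC100819216 (PYL1-like), had 0.60, 0.92 and 1.20 against 1.80, 4.83 and 3.88 (1.19 ± 0.34), near the filter on low values, and its call was lost without TW-1-3 replicate 2 (0.97).

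Of 29 glycolysis and fermentation genes 0 were called higher and 1 lower, 5 and 2 with the replicate block, and 13 and 3 without TW-1-3 replicate 1. These were 3.45% called with all libraries, beside 7.75% of all genes, and 44.8% higher and 10.3% lower without that library, beside 16.4% and 11.8%. The gene called lower was LOC100792487, an alcohol dehydrogenase-like 4 gene, with 41.6, 14.9 and 24.0 against 4.62, 0.67 and 0.30 (-3.48 ± 0.64). Enolase (LOC100811084) of glycolysis had 38.9, 138 and 134 against 84.5, 373 and 284 (1.20 ± 0.73, called with the block at an SE of 0.25), and pyruvate decarboxylase 2 (LOC100782747) of fermentation 628, 287 and 260 against 319, 98.2 and 104 (-1.28 ± 0.59, called with the block at an SE of 0.27). In both genes TW-1-3 moved the same way from TW-1-2 under each replicate number. ICL1, an isocitrate lyase of the glyoxylate cycle that turns stored oil into sugar, had 4.19, 13.3 and 10.7 against 71.9, 21.5 and 22.2 (1.82 ± 0.60), with replicate 1 the highest TW-1-3 library, and lost its call without TW-1-2 replicate 1 (1.38). Of 7 genes listed under inositol phosphates 0 were called in either direction, and without TW-1-3 replicate 1 it was 2 higher and 1 lower. This list also holds purple acid phosphatases and an inositol oxygenase, so it is wider than the pathway in which the lines carry their lesion. The purple acid phosphatase genes LOC100775672 and LOC100789918 were among those called without that library.

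The number of expressed genes per library did not separate the stages. Genes with FPKM of at least 1 numbered 22368, 23457 and 23552 in TW-1-2 and 21576, 24517 and 25452 in TW-1-3, so that TW-1-3 held both the lowest and the highest library. The means were 23126 ± 658 and 23848 ± 2023 (SD, n = 3 libraries each), so they differed by 722.7 genes (p = 0.5 by a two-sided exact permutation test, where 0.1 is the smallest p that 3 against 3 allow). Without TW-1-3 replicate 1 the difference was 1859 genes (exact permutation p = 0.1), and without TW-1-3 replicate 3 it was -79.2 genes. Below FPKM 1 in all TW-1-2 libraries and at or above it in all of TW-1-3 were 105 genes, and 1089 if replicate 1 of TW-1-3 was not counted. The reverse held for 125 and 388 genes.

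The same step in TW-1-M served to test whether the change was particular to TW-1. In TW-1-M 2291 genes were called between stage 2 and stage 3 (8.44%), 1094 higher (4.03%) and 1197 lower (4.41%), with 879 at the adjusted p in limma (3.24%), and no library is shared with the comparison in TW-1. The falls of maturation and reserve transcripts were also seen in TW-1-M, measured as medians against the mean of TW-1-1. For LEA and seed maturation genes these medians were -3.40, -3.36 and -3.31 in TW-1-M-2. They were -6.48, -5.76 and -6.41 in TW-1-M-3. Storage protein and oil body genes went from -1.96, -1.57 and -1.81 to -4.13, -3.17 and -4.38. For genes of the raffinose family sugars too, every TW-1-M-3 library lay below every TW-1-M-2 library. By the interaction in limma the change differed between the lines in 3 genes at an adjusted p below 0.05 (0.011% of the genes tested) and in 2421 at an unadjusted p below 0.05 (8.92%), and without TW-1-3 replicate 1 in 92 (0.339%) and 6303 (23.2%). As each of the 12 libraries was left out, the count of 3 was 0 without TW-1-2 replicate 1, TW-1-3 replicate 2 or 3, TW-1-M-2 replicate 1 or 2, or TW-1-M-3 replicate 1, was 2 to 4 without the other libraries of the set except TW-1-3 replicate 1, and was 0 with the replicate block. LOC100787770, a GTE10-like gene of the bromodomain transcription factors, had 16.7, 15.5 and 14.8 in TW-1-2 and 1.85, 1.40 and 1.44 in TW-1-3, whereas it had 2.60, 2.21 and 2.80 in TW-1-M-2 and 2.05, 2.61 and 2.28 in TW-1-M-3. At both of its stages TW-1-M lay near the level of TW-1-3, and the difference of the changes was -2.61 ± 0.25 (limma adjusted p = 0.0102). LOC102667357 had 2.66, 4.78 and 7.29 in TW-1-M-2 and 2.86, 3.05 and 1.14 in TW-1-M-3, and its change differed between the lines by -5.19 ± 0.56 (limma adjusted p = 0.0199). The third gene, LOC100786628, has no description here and showed the same pattern (-2.07 ± 0.25, limma adjusted p = 0.0419).

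Heat shock genes were frequent among the differences. Of the 73 in the list 27 had an interaction p below 0.05 with all 12 libraries, 0 at the adjusted p, and without TW-1-3 replicate 1 it was 43, of which 41 had the lower change in TW-1, and 6 at the adjusted p. In TW-1-M 14 of the 73 were called lower and 4 higher. The lines entered this step at different levels. Measured against the mean of TW-1-1, the median of the list was 0.04, -0.54 and -0.64 in TW-1-2. It was already -1.72, -1.87 and -2.18 in TW-1-M-2. At stage 3 it was -0.60, -1.98 and -1.81 in TW-1-3 and -2.08, -2.01 and -2.34 in TW-1-M-3. The chaperone ClpB1-like gene LOC100797673, which with its partners dissolves protein aggregates, fell in TW-1 from 28.7, 13.4 and 12.0 to 2.27, 0.81 and 1.34 (-2.88 ± 0.41), and had 2.06, 1.25 and 1.10 in TW-1-M-2 and 1.75, 1.55 and 1.11 in TW-1-M-3. A small heat shock gene of the Hsp23 type (gene33023) fell in TW-1 from 327, 139 and 152 to 54.9, 20.8 and 27.8, while TW-1-M had 30.6, 44.2 and 36.6 at stage 2 and 137, 61.2 and 55.5 at stage 3. The difference of the changes was -3.61 ± 0.65 with all libraries (limma adjusted p = 0.192) and -4.00 ± 0.60 without TW-1-3 replicate 1 (limma adjusted p = 0.0277).

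**Figure D5:**
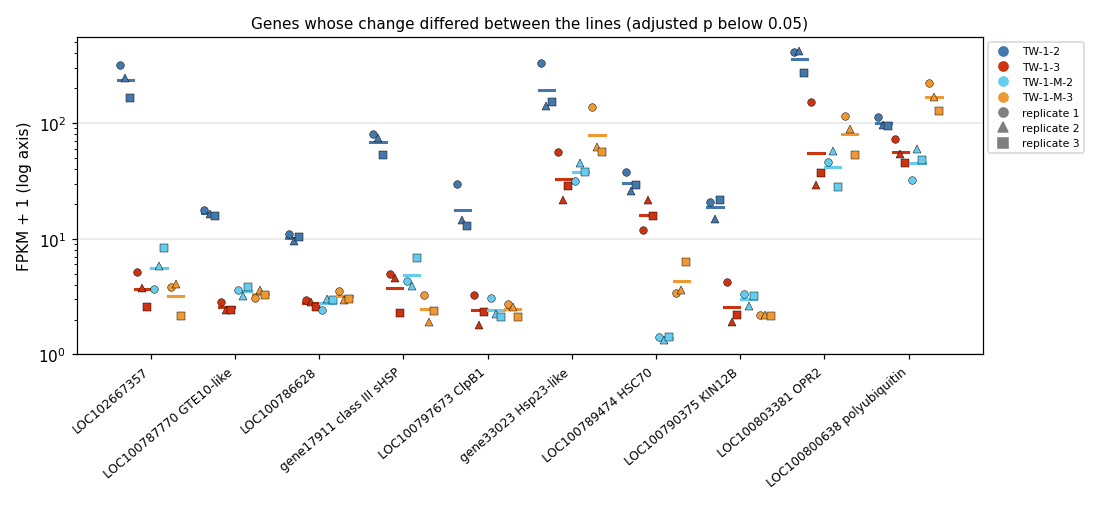
FPKM + 1 on a log axis of 10 genes in TW-1-2, TW-1-3, TW-1-M-2 and TW-1-M-3, where each point is a library, the marker shape gives the replicate and a bar the mean of log2(FPKM + 1). The change differed between the lines at an adjusted p below 0.05 with all 12 libraries in the first 3 genes and without TW-1-3 replicate 1 in the others, and in LOC100787770 TW-1-2 lies at FPKM 14.8 to 16.7 while the other 3 groups lie between 1.40 and 2.80.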

How the data were processed

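Whole-seed RNA was depleted of ribosomal RNA and sequenced by the authors, who trimmed the reads with Trimmomatic, dropped reads seen only once, mapped the rest with TopHat to a soybean reference (at most 2 mismatches) and computed FPKM with cuffquant and cuffnorm. The authors deposited a table of FPKM per gene and library, and tool versions are not given in the sources used here. Dropping reads seen once can lower the values of weakly expressed genes.

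Here limma 3.58.1 (lmFit and eBayes with trend, R 4.3.3) was run on log2(FPKM + 1), with only the libraries compared in each fit, and p-values were adjusted over all 27150 genes by Benjamini-Hochberg. Tables and exact tests used Python 3.11.15. The fit was run on simulated data with independent noise at the spread of the TW-1-1 libraries. That simulation held no displaced library and no deviation shared by replicate number. It therefore cannot show how the fit behaves with these features of the data. No source ties the replicate numbers to a shared batch, but the deviations of same-numbered TW-1-2 and TW-1-3 libraries from their group means correlated at 0.67, 0.54 and 0.46 (replicates 1 to 3), and those of differently numbered ones at -0.73 to 0.61, the highest for TW-1-2 replicate 3 with TW-1-3 replicate 2. Since each same-numbered pair was above 0.1, a block fit is given where it changes a call. The block was thus chosen from these data, and p-values with it rest on that choice.

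Symbols came from the RefSeq table of a later assembly (Glycine_max_v4.0), which matched 36767 of 45955 genes, and descriptions from the annotation of the study, which covered 3106 of the 27150 genes tested. The libraries, lists and tests were chosen with earlier results of these data known. Genes named were taken from, in both fits, the 10 largest described changes without overlap and the 5 most abundant called genes in each direction, and in each list the 4 most abundant members and the largest called change in each direction, of which not every one is printed. SLE2, CG-1, GY2, GY4, GASA21, DD2/63, LOC100800288, the genes of the line comparison and those given for TW-1-3 replicate 1 alone were chosen after their values were seen. Alternatives were another pseudocount, filter, scaling, number of libraries in the fit, ratio of group means, replicate block, and each library left out.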

Additional observations from a re-analysis of the deposited data

Results flagged for a closer look

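In 3 genes the change from stage 2 to stage 3 differed between TW-1 and TW-1-M by the interaction test in limma at an adjusted p below 0.05. The change was lower in TW-1 by -2.61 on the log2 scale in LOC100787770, by -5.19 in LOC102667357 and by -2.07 in LOC100786628, and at stage 2 all 3 TW-1 libraries were above all 3 of TW-1-M in each gene. The stage 2 levels of both lines enter the test, so that order is not separate evidence.

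Without TW-1-3 replicate 1 the number of such genes was 92, of which 84 changed lower in TW-1 and 8 higher. In all 84 the libraries of TW-1-2 were each above those of TW-1-M-2, which was so in 5843 of the 27150 genes tested. The 84 were picked by a test that holds these stage 2 levels, so their order is largely part of the selection and not separate evidence. The polyubiquitin gene LOC100800638 had FPKM 113, 95.5 and 93.2 in TW-1-2, 72.0, 53.4 and 43.8 in TW-1-3, while TW-1-M-2 had 31.3, 59.0 and 46.8 and TW-1-M-3 had 221, 168 and 125. LOC100803381, a 12-oxophytodienoate reductase 2, an enzyme class of jasmonate metabolism, had 413, 417 and 272 in TW-1-2, 152, 28.4 and 35.7 in TW-1-3, with 45.5, 55.9 and 26.9 in TW-1-M-2 and 114, 87.1 and 51.7 in TW-1-M-3. Among those with the higher change in TW-1 was LHCB1-7, named as a light-harvesting chlorophyll a-b protein, with 0, 0.41 and 0.31 in TW-1-2, 0.10, 38.8 and 29.1 in TW-1-3, while TW-1-M-2 had 0.49, 0.83 and 0.14 and TW-1-M-3 had 3.73, 2.23 and 1.64.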

How the results depend on the processing

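The number of genes called with all 6 libraries (2105) was 3368 with the replicate block and ranged from 1253 to 7652 as each library was left out. The number at the adjusted p (0 in limma, beside 3913 at an unadjusted p below 0.05) was 1 with upper quartile scaling or the replicate block, 23 with the 9 libraries of TW-1 in the fit, 2187 with all 18 and from 0 to 7582 as libraries were left out. The 7652 genes called without TW-1-3 replicate 1 ranged from 5081 to 8542 with a further library left out, and those at the adjusted p from 0 to 9425, where 0 came from leaving out a further TW-1-3 library, which leaves 1 library assumed to vary like TW-1-2. The cause was not tested.

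The 3 genes that differed between the lines were 1 with a pseudocount of 0.1, 11 with 18 libraries in the fit, 0 with the replicate block and 0 to 92 as libraries were left out, and those at an unadjusted p below 0.05 ranged from 1514 to 6303 and were 3521 with the block. In TW-1-M same-numbered libraries deviated together at only 0.03, -0.21 and 0.27. The difference in expressed genes ranged from -79.2 to 1859 as libraries were left out, and that of LEA5 from -0.52 to 0.74 on the log2 scale.

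Of 540 values for 60 genes with all 6 libraries under 9 other settings, 520 kept direction and call, 13 lost the call, 7 gained it and 0 reversed. PM1, PM9, PM30, LOC100809287 and LOC100306228 lost it with no filter on low values, LOC100804565 and ICL1 with 9 libraries in the fit, and the ribosomal gene LOC100305476 with quantile normalization (1.26). As each library was left out, 305 of 360 kept both, 52 lost the call, 2 gained it and 1 reversed, LEA5. For 25 genes without TW-1-3 replicate 1, 119 of 125 values under other settings and 104 of 125 with a further library left out kept both, and XTH1 lost its call under 4 of the 5 other settings. Quantile normalization moved the median of all genes from 0.10 to 0.04 with all libraries and from 0.10 to -0.01 without TW-1-3 replicate 1, and kept the sign of the median of 37 of 39 lists. Leaving out 1 library kept it in 29 (TW-1-3 replicate 2) to 38 (TW-1-2 replicate 2) of the 39. The fragments behind an FPKM value were not derived from the reads reported per library, so weak transcripts near FPKM 1 carry an unknown counting error.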

Other observations

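Of 19 oil mobilisation genes 1 was called higher and 4 lower with all 6 libraries (26.3% called, beside 7.75% of all genes), and without TW-1-3 replicate 1 it was 5 and 6. LOC100795212, a monoglyceride lipase, had FPKM 44.0, 28.1 and 61.3 in TW-1-2 and 7.15, 5.28 and 3.22 in TW-1-3 (-2.85 ± 0.39), with no overlap. Of 50 phenylpropanoid and isoflavonoid genes 4 were higher and 4 lower, 16.0% called (15 and 8 without that library). UGT2, an isoflavone 7-O-glucosyltransferase that adds glucose to isoflavones, had 579, 377 and 456 against 247, 127 and 107 (-1.62 ± 0.41). Of 51 cell cycle and DNA replication genes, of which 9.8% were called, the histone H2B.3 gene LOC100786873 fell most, from 48.5, 35.6 and 70.8 to 20.0, 13.8 and 4.28 (-2.11 ± 0.56), while the histone H4 gene LOC100800769 rose from 114, 101 and 94.1 to 196, 340 and 173 (1.13 ± 0.35), a call lost with quantile normalization (0.84).

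TW-1-3 replicate 1 held 43 genes at FPKM at least 4 times above each of the other 8 TW-1 libraries and 8 genes at least 4 times below, a rule set after its values were seen, beside 27 and 0 for TW-1-2 replicate 1, 3 and 9 for TW-1-3 replicate 2, and 6 and 3 for TW-1-3 replicate 3. One of those with a description was a kiwellin-like gene (LOC100800307), of a family of secreted defence proteins, with FPKM 1897 in TW-1-3 replicate 1, 218 and 137 in replicates 2 and 3, and 68.7 to 168 in TW-1-2. Chitinase III-A (LOC547454), which cuts fungal chitin, had 421 beside 80.7 and 47.6, and 13.6 to 53.8 in TW-1-2. The glycine-rich wall protein gene LOC102668271, at 1002 in replicate 1, was another.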
